A study of Rattus norvegicus with 48 samples.

Results

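The miRNAs described here are both arms of miR-351, both arms of miR-542, miR-450a-5p and miR-450b-3p, the downstream members of the miR-322/503 cluster in the plasma of rats with a healing skull defect. They were picked by name, as 6 of the 645 mature miRNAs in the deposited counts, after their changes against baseline were known, so those changes are given as a description. Calls from the fit over all miRNAs are counted for them only beside the share called in the whole table, and support nothing about the 6. All 6 were lower in plasma at weeks 1, 4 and 8 after surgery than before it. miR-351-3p showed the deepest decrease of the 6 at each of the 3 weeks, and miR-450a-5p, the most abundant of them, the shallowest at weeks 1 and 8. None of the 6 differed between strong and weak regenerators at an FDR under 0.05.

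The samples came from 12 male rats, 12 weeks old and of the Sprague-Dawley strain per the study's methods (its abstract names Wistar rats), each with 1 circular defect drilled through the calvaria. After the study, 6 strong and 6 weak regenerators had been selected by bone volume on microCT from animals with an empty defect, a collagen hydroxyapatite (CHA) scaffold, a CHA scaffold with a plasmid for BMP2 and miR-590-5p, or a CHA scaffold with extracellular vesicles of mesenchymal stromal cells. By the study's account the treatments were unevenly spread over these groups. No weak regenerator had the CHA scaffold alone, and the plasmid scaffold was more frequent among the weak than the strong. Which rat had which treatment was not used here, so treatment and regeneration cannot be told apart. Tail-vein EDTA plasma was taken before surgery (week 0, baseline) and at weeks 1, 4 and 8, which gave 48 samples. The labels do not give a regeneration group for the baseline samples, which were assigned through the animal. No unoperated rats are among the samples, so healing, growth of the animals and repeated sampling cannot be told apart.

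A miRNA gene is transcribed as a long precursor from which a hairpin is cut, and the hairpin yields a 5p and a 3p strand, of which either can be loaded into a silencing complex. Bases 2 to 8, the seed, pair with target messages. The hairpins of this cluster lie close together on the X chromosome and are processed from a shared transcript, and the cluster is best known from cell cycle exit and muscle differentiation. miR-542-3p has been described as a repressor of osteoblast differentiation, and miR-351-5p as a miRNA of proliferating muscle precursors. Extracellular miRNAs in plasma travel in vesicles and in protein complexes, so a plasma level does not name the cell that released them. Fewer releasing cells, and less RNA released or kept per cell, cannot be told apart in these samples.

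Sequences of all 6 were found in RefSeq (GRCr8) on the minus strand of the X chromosome. In the direction of transcription the hairpins come in the order miR-322, miR-503, miR-351, miR-542, miR-450b and miR-450a. The 6 mature sequences are shown because they carry 6 different seeds, with the seed in capitals:
rno-miR-351-5p: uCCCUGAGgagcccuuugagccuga
rno-miR-351-3p: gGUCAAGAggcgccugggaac
rno-miR-542-5p: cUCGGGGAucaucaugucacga
rno-miR-542-3p: uGUGACAGauugauaacugaaa
rno-miR-450b-3p: aUUGGGGAcgcuucgcauuca
rno-miR-450a-5p: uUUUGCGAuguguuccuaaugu

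The arms of miR-351 map to chrX:137725157-137725181 (5p) and chrX:137725121-137725141 (3p). Those of miR-542 map to chrX:137722223-137722244 (5p) and chrX:137722185-137722206 (3p). miR-450b-3p lies at chrX:137721084-137721104 and miR-450a-5p at chrX:137720985-137721006. The counts were made by the authors on another build, and no coordinate was carried over.

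Among the 583 listed miRNAs with a RefSeq sequence, the seeds of miR-351-5p and miR-450a-5p recur in other miRNAs, and those of the remaining 4 do not. The sequences that share them are shown because they bear on which reads count for which miRNA:
miR-125a-5p: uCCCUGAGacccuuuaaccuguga
miR-125b-5p: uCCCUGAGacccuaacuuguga
miR-450b-5p: uUUUGCGAuguguuccuaaua

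miR-351-5p and the miR-125 miRNAs part right after the seed, so their reads are separable. miR-450a-5p and miR-450b-5p share their first 20 bases, and counting allowed 1 mismatch, so the split of reads between them is uncertain.

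Levels are given as RPM, the reads of a miRNA in every 1000000 miRNA reads of the sample, which sets each sample to the same total. The miRNA reads per sample ranged from 393259 to 1586398 (median 796311). All 6 miRNAs had reads in all 48 samples, from 2 reads for miR-450b-3p in its lowest sample to 1757 for miR-450a-5p in its highest. Reads of UniSp2, a synthetic RNA added during extraction, numbered between 23.3 and 60.4 for every 1000 miRNA reads up to week 4 and between 91.1 and 144 at week 8, so the last time point stood apart. Of the marker miRNAs checked, those of red blood cells (5 of 5) summed to medians of 260833, 308275, 288472 and 322997 RPM at weeks 0, 1, 4 and 8, and those of platelets (3 of 3) to 71778, 73983, 80966 and 72978. The 4 leukocyte markers summed to medians of 32240, 20848, 27129 and 11384 RPM, lower than baseline at all later weeks. For the 3 liver markers the medians were 10083, 10397, 11893 and 4624 RPM, lower than baseline at week 8 alone, and for the 4 muscle markers 1375, 1278, 1970 and 2168 RPM. None of these lists had a marker at 0, and their part in the levels of the 6 miRNAs was not tested.

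Over all 48 samples miR-450a-5p had the highest mean level of the 6, 924 RPM, rank 79 of 645. miR-351-5p followed with 315 RPM (rank 120), ahead of miR-542-3p with 131 RPM (rank 158) and miR-351-3p with 116 RPM (rank 164). miR-542-5p had a mean of 52.9 RPM (rank 214) and miR-450b-3p of 31.4 RPM (rank 239). Together the 6 took a mean of 0.249% of the miRNA reads before surgery, 0.145% after 1 week, 0.107% after 4 and 0.127% after 8. miR-450a-5p made up a median of 54.3% of the reads of the 6 at baseline and 68.5% at week 8.

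**Figure D1:**
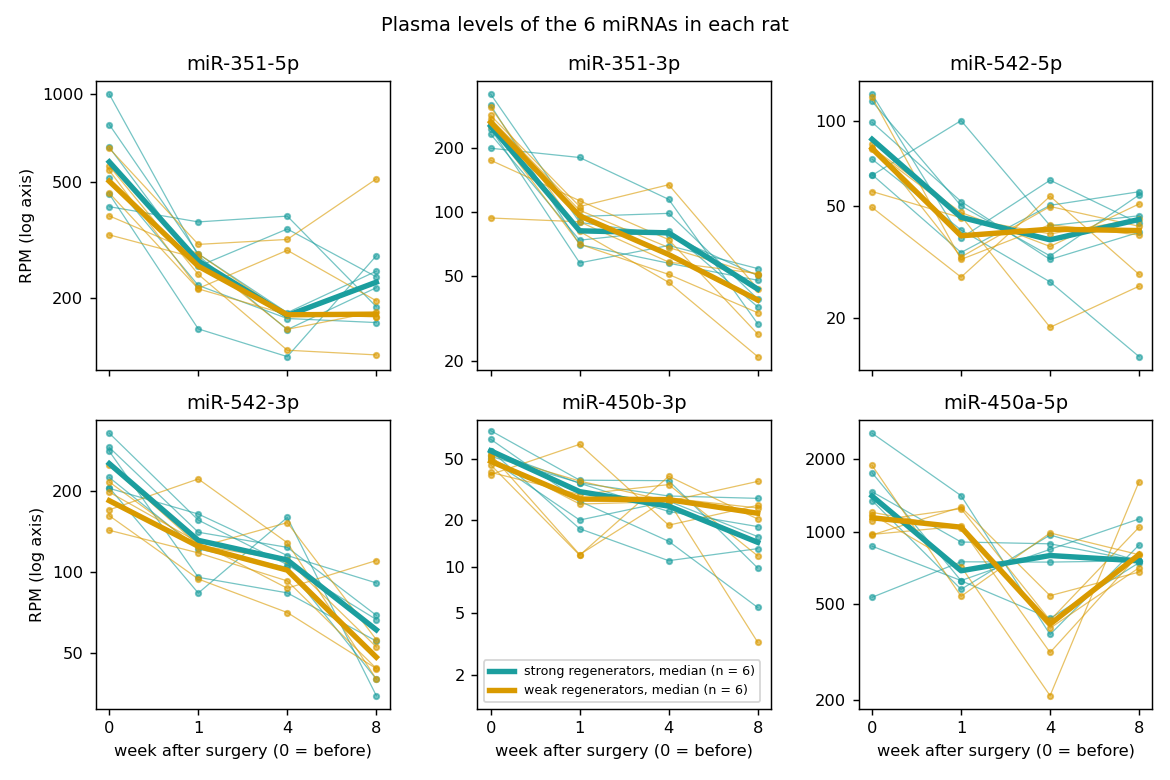
Level of each of the 6 miRNAs in RPM (log axis, own scale in each panel) against week after surgery, with a thin line for each of the 12 rats and thick lines for the medians of 6 strong (turquoise) and 6 weak (yellow) regenerators. The thin lines of both groups overlap in each panel. The medians of miR-450a-5p part at week 1 (687 RPM in strong, 1042 in weak) and, the other way round, at week 4 (795 in strong, 413 in weak). Most lines go down at week 1, and those of miR-450a-5p go up again from week 4 to week 8 in 9 of 12 rats.

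rno-miR-351-5p had a median of 530 RPM before surgery (329 to 995 over 12 rats). The median was 265 RPM at week 1 (157 to 364), 175 at week 4 (126 to 381) and 191 at week 8 (128 to 511). Each of the 12 rats was below its own baseline at each of the 3 later weeks, while the ranges of the weeks overlapped. The log2 fold change against baseline was -1.03 ± 0.19 (SE) at week 1, -1.28 ± 0.19 at week 4 and -1.26 ± 0.19 at week 8. From week 4 to week 8 the level was lower in 7 rats and higher in 5. Relative to miRNA reads, most of the decrease was thus present at week 1, and it had levelled off by week 4. Scaled to UniSp2 reads it had not levelled off. That scaling gave -3.14 at week 8, below the lowest week 4 value under any scaling or fit, -1.69.

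rno-miR-351-3p, the opposite strand of the same hairpin, had a median of 256 RPM at baseline (93.8 to 357). It came to 89.8 RPM by week 1 (57.9 to 180), 72.0 at week 4 (46.9 to 134) and 41.5 at week 8 (21 to 54.4). All 12 rats were below their baseline at every later week, and the highest week 8 sample lay below the lowest baseline sample. Its log2 fold change reached -1.33 ± 0.18 by week 1, -1.59 ± 0.18 by week 4 and -2.56 ± 0.19 by week 8. Unlike the 5p strand it was lower at week 8 than at week 4 in all 12 rats. Among the 310 miRNAs with a mean of at least 10 RPM, it had the deepest decrease at weeks 1 and 4 and the third deepest at week 8.

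rno-miR-542-5p had a median of 80.1 RPM at baseline (49.4 to 125), 43.2 at week 1 (27.9 to 101), 41.2 at week 4 (18.5 to 61.8) and 42.9 at week 8 (14.5 to 56.2). The level was below baseline in 11 of 12 rats at week 1 (not in strong rat 21), in 11 at week 4 (not in weak rat 16) and in 12 at week 8. Log2 fold changes were -0.80 ± 0.18, -0.98 ± 0.18 and -1.0 ± 0.19 at weeks 1, 4 and 8. As for miR-351-5p, the later weeks differed little from each other relative to miRNA reads. In RPM, 5 of 12 rats were lower at week 8 than at week 4. Under scaling to UniSp2 reads the week 8 value was -2.93, below the lowest week 4 value of any scaling or fit, -1.37.

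rno-miR-542-3p, the more abundant strand of its hairpin, had a median of 211 RPM at baseline (143 to 327), 124 at week 1 (83.3 to 221), 108 at week 4 (70.5 to 159) and 53.9 at week 8 (34.6 to 110). Weak rat 3 at week 1 was the only sample not below its own baseline, and at week 8 the range lay wholly under that of baseline. The log2 fold change went from -0.63 ± 0.17 at week 1 through -0.90 ± 0.17 at week 4 to -1.84 ± 0.18 at week 8, and 11 of 12 rats were lower at week 8 than at week 4.

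rno-miR-450b-3p was the scarcest of the 6, with a median of 52.4 RPM at baseline (39.5 to 76.0). It came to 28.0 RPM at week 1 (11.9 to 62.0), 26.6 at week 4 (10.9 to 38.5) and 16.9 at week 8 (3.24 to 35.7). All rats were below their baseline except weak rat 3 at week 1, and at weeks 4 and 8 no sample reached the lowest baseline value. Log2 fold changes were -0.74 ± 0.23, -0.94 ± 0.23 and -1.58 ± 0.25. The spread between rats widened from a coefficient of variation of 19.2% at baseline to 54.6% at week 8, where the sample with the fewest reads had 2.

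rno-miR-450a-5p had a median of 1188 RPM at baseline (534 to 2559), 827 at week 1 (539 to 1409), 489 at week 4 (208 to 987) and 779 at week 8 (679 to 1612). It was below baseline in 8 rats at week 1, in 11 at week 4 and in 9 at week 8, and strong rat 29, which had the lowest baseline level of all, was below it at none of the 3. Log2 fold changes were -0.43 ± 0.21, -1.09 ± 0.21 and -0.50 ± 0.21. Relative to miRNA reads its course thus turned. In RPM, 9 of 12 rats were higher at week 8 than at week 4, and the mean level was 1.49 times that of week 4. Scaled to UniSp2 reads it did not turn. That scaling gave -2.44 at week 8, below the lowest week 4 value under any scaling or fit, -1.44. The reads of miR-450a-5p were a median of 32.3 times those of miR-450b-5p at baseline (23.5 to 58.6). The median was 38.6 times at week 1, 32.2 times at week 4 and 77.9 times at week 8 (46.7 to 204). At week 8 miR-450b-5p had only 2 to 21 reads in a sample, so the ratios of that week are imprecise. The split of reads between these miRNAs with 20 shared bases is uncertain, and a change in their ratio was not tested.

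These 3 comparisons share the same 12 baseline samples. The median log2 fold change of the 6 was -0.77, -1.03 and -1.42 at weeks 1, 4 and 8, and that of the 310 miRNAs with a mean of at least 10 RPM was -0.04, 0.07 and -0.12. At week 1 edgeR called 4 of the 5 that passed its filter on low abundance lower, where 9.05% of the miRNAs tested were called lower, and miR-450b-3p fell under that filter. The call at week 1 did not include miR-450a-5p. At week 4 all 6 were called lower, against 4.03% of all tested, and at week 8 all 6 against 26.1%. As the members were chosen on these contrasts, nothing is read from these counts.

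Scaling to UniSp2 reads in place of miRNA reads lowered the week 8 log2 fold changes to -3.14 for miR-351-5p, -4.45 for miR-351-3p, -2.93 for miR-542-5p, -3.76 for miR-542-3p, -2.44 for miR-450a-5p and -3.46 for miR-450b-3p. That scaling moved the median of the 310 miRNAs to -2.01 at week 8, and to -0.32 and -0.29 at weeks 1 and 4. Under both scalings all 6 were below the median of the 310. The part of the spike-in shift in the week 8 values was not tested.

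How these calls moved with the processing is given for completeness and is no evidence of stability. The call of miR-450a-5p at week 8 was lost in 15 of 20 alternatives, among them the rat as a block, DESeq2 and the omission of any rat but weak rats 16 and 26. miR-450b-3p at week 1 was called in 15 of the 20 alternatives, 9 of them the omission of 1 rat. The calls of the other members were the same in all 20.

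The neighbours upstream in the transcript were lower too, as shown in the plot across the cluster. The log2 fold changes of miR-322-3p were -1.18, -1.36 and -2.88 at weeks 1, 4 and 8, and those of miR-322-5p were -0.80, -1.11 and -1.59. For miR-503-3p they were -1.30, -1.48 and -2.27, and for miR-503-5p -1.06, -1.16 and -2.22. miR-450b-5p, the other strand of the miR-450b hairpin, had -0.54, -1.03 and -1.56, close to its 3p strand at every week. miR-450a-3p had 0 reads in 39 of the 48 samples and gave no usable change. Of the 11 arms with a value, only miR-351-5p, miR-542-5p and miR-450a-5p had a week 8 value within 1 SE of the week 4 value or above it. Each is a 5p strand, but the 5p strands of miR-322, miR-503 and miR-450b had deeper decreases at week 8 than at week 4. The pattern of miR-351-5p, miR-542-5p and miR-450a-5p held relative to miRNA reads. Under scaling to UniSp2 reads each of these was lower at week 8 than at week 4.

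**Figure D2:**
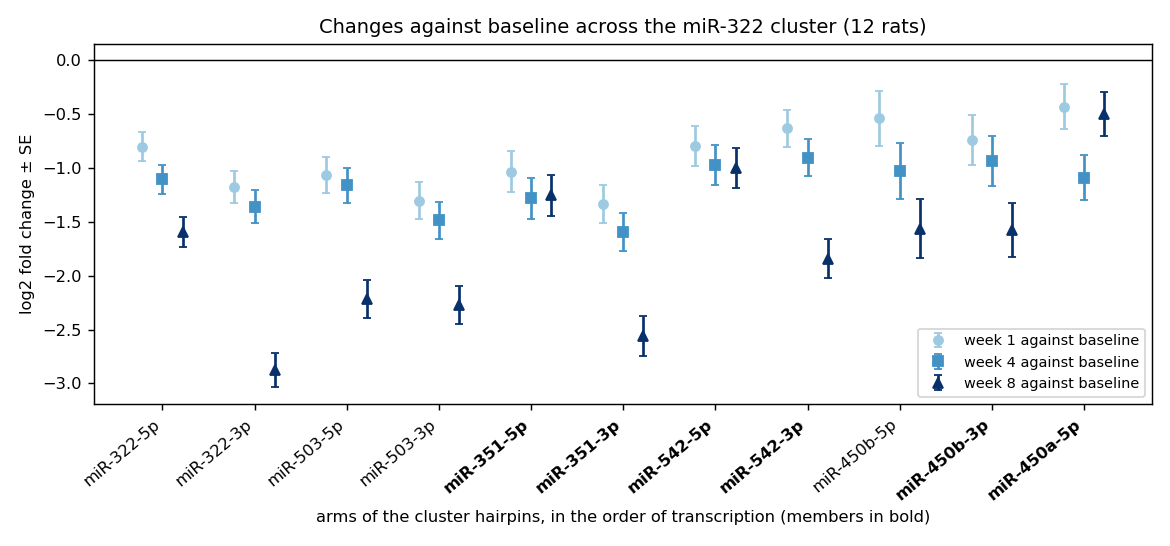
Log2 fold change against baseline (points, with bars of 1 SE, 12 rats) at weeks 1, 4 and 8 for the arms of the cluster in the order of transcription, with the 6 members in bold. All points lie below 0, from -0.43 for miR-450a-5p at week 1 to -2.88 for miR-322-3p at week 8. The week 8 triangles of miR-351-5p, miR-542-5p and miR-450a-5p lie above those of the other arms. The week 8 bar of miR-351-5p overlaps those of both miR-450b arms.

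The strands of a hairpin could be compared within a sample, where scaling between samples has no part. For miR-351 the 5p strand had a median of 2.13 times the reads of the 3p strand at baseline (1.43 to 3.51 over 12 rats), 2.97 times at week 1 (2.02 to 3.82), 2.56 times at week 4 (1.81 to 4.27) and 5.95 times at week 8 (3.03 to 11.7). On the log2((5p RPM + 1)/(3p RPM + 1)) scale, week 8 exceeded baseline by 1.23 ± 0.66 (SD, n = 12), with 11 of 12 rats higher. The 5p strand was thus the more abundant one throughout, by a wider margin at week 8.

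For miR-542 the order of the strands was the opposite, with a median 5p to 3p ratio of 0.353 at baseline (0.262 to 0.613), 0.315 at week 1 (0.205 to 1.21), 0.316 at week 4 (0.200 to 0.768) and 0.702 at week 8 (0.263 to 1.41). The log2 ratio at week 8 exceeded baseline by 0.89 ± 0.86 (SD, n = 12), with 10 of 12 rats higher. The ratio of miR-322 was higher by 1.25 in 12 of 12 rats, while that of miR-503 differed by 0.08 and was higher in 7.

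Shifts of this size at week 8 were common in the data. Over the 76 hairpins with both arms at a mean of at least 10 RPM, the median size of the week 8 shift was 0.869, against 0.262 at week 1 and 0.0965 at week 4. The ratio was higher at week 8 for 36 hairpins and lower for 40, and by size miR-351 ranked 23 and miR-542 ranked 37 of 76. The week 8 samples were also those with the most UniSp2 reads relative to miRNA reads, and the part of that in the strand ratios was not tested.

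**Figure D3:**
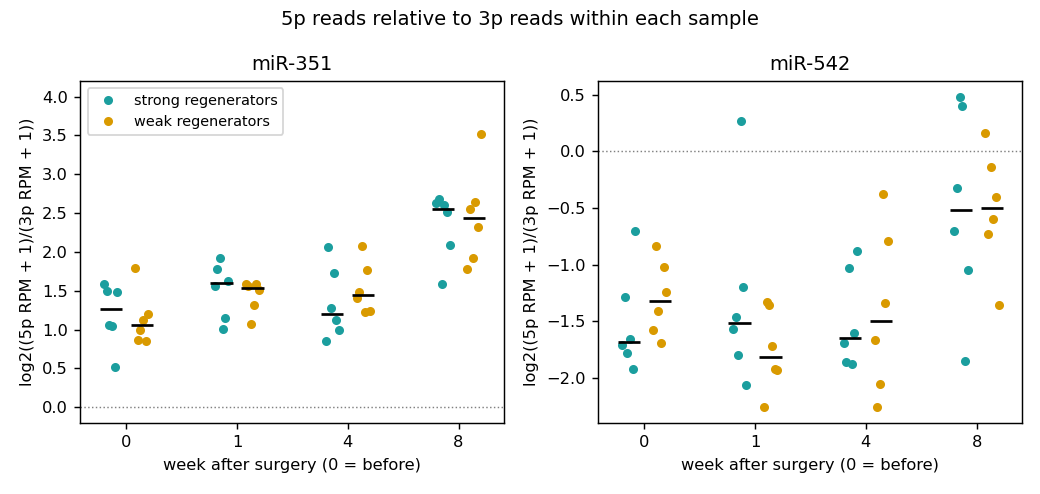
Log2 ratio of 5p to 3p RPM (each with 1 RPM added) for miR-351 and miR-542 in each sample, by week, with points for strong (turquoise) and weak (yellow) regenerators, black lines for the medians of 6 rats, and a dotted line where both strands are equal. Points of miR-351 lie above that line and most points of miR-542 below it, and both move up at week 8 in both groups.

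Strong and weak regenerators were compared to ask whether plasma levels go with the amount of new bone, a contrast that had no part in the choice of these miRNAs. Over all time points and adjusted for week, the log2 difference (strong minus weak) was 0.07 ± 0.13 (SE) for miR-351-5p, 0.09 ± 0.13 for miR-351-3p and 0.15 ± 0.13 for miR-542-5p. It was 0.07 ± 0.12 for miR-542-3p, 0.04 ± 0.15 for miR-450a-5p and -0.16 ± 0.17 for miR-450b-3p. By edgeR's quasi-likelihood test 0 of the 6 were called, and none had an unadjusted p under 0.05, with a smallest p of 0.277 and FDR of 0.758 for miR-542-5p. DESeq2 called 0 as well. Over the whole table of 645 miRNAs 0% were called, and the unadjusted p was under 0.05 for 64. The 95% intervals (1.96 SE) ran from -0.49 for the lower bound of miR-450b-3p to 0.41 for the upper bound of miR-542-5p, so differences of that size were not resolved.

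That comparison treats the 4 samples of a rat as independent. With the samples of each rat summed, 6 against 6 rats, the differences lay between -0.11 for miR-450b-3p and 0.10 for miR-351-5p and for both arms of miR-542, with edgeR FDRs from 0.993 to 0.999.

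Before surgery all 6 had a higher fitted level in the strong regenerators, by 0.37 for miR-351-5p, 0.21 for miR-351-3p, 0.23 for miR-542-5p, 0.45 for miR-542-3p, 0.24 for miR-450a-5p and 0.34 for miR-450b-3p on the log2 scale. miR-542-3p came closest to the threshold. It lay at 204 to 327 RPM (median 252) in the 6 strong and at 143 to 249 RPM (median 184) in the 6 weak regenerators. These ranges overlapped, and the difference of 0.45 (95% interval -0.03 to 0.92) had an unadjusted p of 0.0693 and an edgeR FDR of 0.703. The 6 differences share the same 12 samples and are not 6 independent observations. At baseline 0% of the 645 miRNAs were called by edgeR, as were 0 of the 6 by DESeq2. An unadjusted p under 0.05 was given by edgeR to 42 miRNAs, 0 of them among the 6.

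At week 1 the differences ranged from -0.32 for miR-450a-5p to 0.33 for miR-542-5p. At week 4 the one nearest the threshold was that of miR-450a-5p, which lay at 374 to 968 RPM (median 795) in strong and at 208 to 987 RPM (median 413) in weak regenerators. The strong range lay within the weak one, whose top value was that of weak rat 25, with the other weak rats at 208 to 542 RPM. The difference of 0.55 (95% interval -0.01 to 1.10) had an unadjusted p of 0.0601 and an edgeR FDR of 0.851. At week 8 the differences ran from -0.54 for miR-450b-3p, at 5.44 to 27.7 RPM in strong and 3.24 to 35.7 RPM in weak regenerators, to 0.07 for miR-351-3p. At each of these weeks edgeR and DESeq2 called 0 of the 6, and no member reached an unadjusted p under 0.05. Over all miRNAs edgeR called 0% at weeks 1 and 4 and 0.155% at week 8, with 32, 25 and 35 at an unadjusted p under 0.05.

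**Figure D4:**
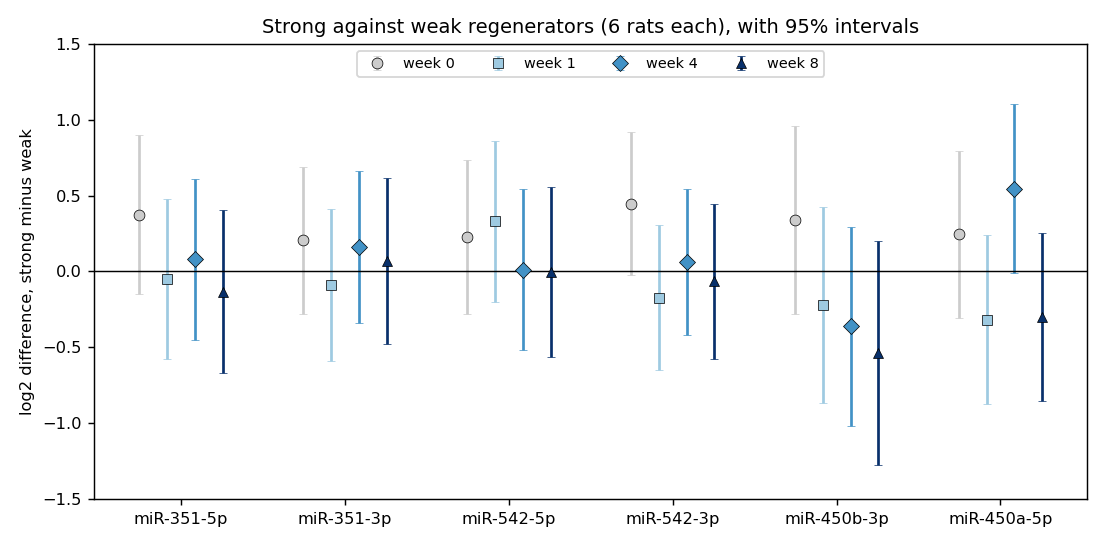
Log2 difference between 6 strong and 6 weak regenerators (strong minus weak, points) with 95% intervals (bars) for each of the 6 miRNAs at weeks 0, 1, 4 and 8. All 24 intervals include 0, the 6 baseline points lie above 0, and the widest intervals belong to miR-450b-3p.

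The change from baseline was compared between the groups as well. The difference in change (strong minus weak) ranged over the 6 from -0.62 to 0.10 at week 1, from -0.70 to 0.30 at week 4 and from -0.88 to -0.14 at week 8. Nearest the threshold were miR-542-3p at week 1 (-0.62 ± 0.34, unadjusted p of 0.0760, edgeR FDR of 1.00) and miR-450b-3p at week 8 (-0.88 ± 0.49, unadjusted p of 0.0794, edgeR FDR of 1.00). With edgeR and with DESeq2 0 of the 6 were called at any week, and none had an unadjusted p under 0.05. Over all miRNAs edgeR called 0% in each of the 3, with 27, 38 and 26 at an unadjusted p under 0.05. The 3 differences at week 1, 4 and 8 share the baseline samples, in which all 6 had the higher fitted level in strong regenerators. By median, the baseline level of miR-351-3p was lower in strong (253 RPM) than in weak regenerators (264 RPM).

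The strand ratios did not differ detectably between the groups either. As a mean over the 4 time points of a rat, the log2 5p to 3p ratio of miR-351 was 1.60 ± 0.23 (SD, n = 6) in strong and 1.64 ± 0.12 in weak regenerators. The difference of -0.04 had an exact permutation p of 0.693 (two-sided, adjusted p of 0.947 over 76 hairpins). For miR-542 it was -1.20 ± 0.32 and -1.24 ± 0.09, a difference of 0.04 with an exact permutation p of 0.773 (adjusted p of 0.947). Of the 76 hairpins, 5 had an exact permutation p under 0.05, and 0 after adjustment.

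The miRNAs with the most similar course were sought by the root mean square difference of the log2 changes from the same rat's baseline, over 36 changes (12 rats at 3 weeks) and among 309 other miRNAs. For miR-351-3p these were miR-503-3p (0.437), miR-455-5p (0.549) and miR-322-3p (0.597). For miR-542-3p they were miR-322-5p (0.437), miR-152-3p (0.531) and miR-140-3p (0.598). miR-351-5p was nearest to miR-455-3p (0.561), miR-322-5p (0.588) and miR-140-3p (0.638). These 3 members had cluster miRNAs and arms of miR-140 or miR-455 among their nearest 3.

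miR-542-5p was nearest to miR-140-3p (0.625), miR-210-3p (0.647) and miR-181a-1-3p (0.648). For miR-450b-3p the nearest were miR-322-5p (0.693), miR-351-5p (0.775) and miR-214-3p (0.784). The nearest miRNAs to miR-450a-5p were miR-125b-2-3p (0.659), miR-497-5p (0.792) and miR-181a-1-3p (0.807), none of them of the cluster. The median difference over the 309 miRNAs lay between 1.32 and 2.05 for the 6 members. miRNAs of a sample share its depth and scaling, and no test was made.

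The list of cartilage miRNAs, the 4 arms of miR-140 and miR-455, holds several of these nearest miRNAs. Its summed level had a median of 106093 RPM at baseline (64623 to 120484), 57974 at week 1 (43426 to 79845), 52495 at week 4 (36703 to 80437) and 31487 at week 8 (26767 to 48176), and all 4 were detected. It was lower at the weeks at which the 6 members were lower, as was the summed level of the leukocyte markers. The part of either sum in the levels of the members was not tested.

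The miRNAs that share the seed of miR-351-5p had higher mean levels. miR-125a-5p had a mean of 2503 ± 941 RPM (SD, n = 12) before surgery, 1900 ± 1197 after 1 week, 1873 ± 603 after 4 and 792 ± 521 after 8. Its log2 fold changes were -0.27, -0.31 and -1.61, with edgeR FDRs of 0.479, 0.540 and 1.31e-06. miR-125b-5p went from 1674 ± 1077 RPM at baseline to 381 ± 199 after 8 weeks. Its log2 fold changes were -0.75, -0.65 and -2.10, with edgeR FDRs of 0.0629, 0.230 and 1.40e-07. Both passed the threshold at week 8 only, whereas the RPM level of miR-351-5p was close to its week 8 value by week 4. Whether these courses differ was not tested.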

How the data were processed

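Plasma small RNA of 12 rats at 4 time points was prepared by single-adapter ligation and sequenced. The authors trimmed adapters with cutadapt 3.3, removed short reads, and assigned reads with Bowtie 1.3.0 and miRDeep2 to Rnor_6.0 and then to rat miRBase entries with 1 mismatch allowed. The submitters' processing notes also list GRCh38.p12, FastQC 0.11.9 and MultiQC 1.10. The authors deposited raw whole-number counts of 645 miRNAs and 3 spike-ins, without normalization. 0 columns were left unmapped. No 2 samples were copies (the lowest chi-square per degree of freedom over 1128 pairs was 23.0). Reads are not shown to be separate molecules, and spike-ins were left out of library totals. miRNA reads per sample set the precision, and members with few reads are the least precise.

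All 645 miRNAs were fitted with R 4.3.3 and edgeR 4.0.16 (TMM, quasi-likelihood as in version 3, two-sided), with Benjamini-Hochberg adjustment after an independent filter on mean abundance modelled on DESeq2 and calls at an FDR under 0.05. Weeks were compared with baseline over 48 samples, and strong with weak regenerators over all time points with week as a covariate, at each week, and in the change from baseline. The strand ratio was tested by exact permutation of the 12 rats, which could reach p = 0.0022 at the lowest, on log2 ratios with 1 RPM added. Tables and plots used Python 3.11.15, numpy 2.4.6, pandas 2.3.3 and matplotlib 3.10.9. The code was tested on simulated data.

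Samples with the same number came from the same rat. Checked on deviations from the group mean, 72 pairs of samples from 1 animal correlated at 0.108 on average, and 360 pairs from different animals at -0.021. Alternatives were other scalings (library size, RLE, UniSp2), other filters, DESeq2 1.42.0, the rat as a block, the samples compared alone, 5 RPM added for strand ratios, week 8 left out and each rat left out. The miRNAs, marker lists and rules for named miRNAs (the members, the other cluster arms, seed sharers and the 3 nearest in course) were chosen with earlier results of these data known. Treatments, bone volumes and sequencing reads were not used here. The RefSeq sequences matched 583 of the 645 names.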

Additional observations from a re-analysis of the deposited data

Results flagged for a closer look

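Each miRNA was checked for a rat far from the other 5 of its group at a week, over 48 groups of 6 rats. In 8 of them the highest rat stood apart by more than Dixon's 95% critical value of 0.625, where chance marks about 1 in 20 groups, and the 6 miRNAs come from the same samples.

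Weak rat 26 stood apart in 3 of the 8. At week 8 it had 511 RPM of miR-351-5p, against 128 to 196 RPM in the other weak regenerators, and 110 RPM of miR-542-3p, against 39.9 to 55.9 RPM. At week 4 it had 134 RPM of miR-351-3p, against 46.9 to 74.3 RPM. Its week 8 library held 708614 miRNA reads (others 393259 to 617655), 105 UniSp2 reads per 1000 of them (others 98.4 to 140) and a summed level of cartilage markers of 28155 RPM (others 26767 to 37970). Its week 4 library held 863534 (others 489502 to 1514610), with 53.0 UniSp2 reads per 1000 (others 25.9 to 40.1) and a cartilage sum of 62216 RPM (others 36703 to 52737).

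Strong rat 21 at week 1 had 180 RPM of miR-351-3p, against 57.9 to 95.4 RPM in the other strong regenerators, and 101 RPM of miR-542-5p, against 34.1 to 51.9 RPM. This library had the fewest miRNA reads of its group (516138, others 681723 to 1586398), the most UniSp2 reads per 1000 (60.3, others 27.7 to 45.9) and the highest cartilage sum (79845 RPM, others 49152 to 64210).

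Weak rat 3 at week 1 had 221 RPM of miR-542-3p, against 94.0 to 129 RPM in the other weak regenerators. This library had the most miRNA reads of its group (1387379, others 421685 to 1115984), the fewest UniSp2 reads per 1000 (23.3, others 35.3 to 45.3) and the lowest cartilage sum (43426 RPM, others 55027 to 66532). For miR-450a-5p, strong rat 17 stood apart at week 8 with 1128 RPM (others 743 to 880) and weak rat 25 at baseline with 1882 RPM (others 968 to 1201). The library of rat 17 held 551566 miRNA reads (others 433308 to 990333), 144 UniSp2 reads per 1000 (others 91.1 to 144) and the highest cartilage sum of its group (48176 RPM, others 28302 to 38725). That of rat 25 had the fewest miRNA reads (754637, others 1012375 to 1275036), with 33.6 UniSp2 reads per 1000 (others 23.4 to 40.8) and a cartilage sum of 113264 RPM (others 64623 to 120484). Spike-in share and cartilage sum were both the highest of their group in rat 21, in rat 26 at week 4 and in rat 17 (143.9 UniSp2 reads per 1000, others up to 143.7). Both were the lowest in rat 3, and both lay within the range of the others in rat 25 and in rat 26 at week 8. Depth was the lowest in rats 21 and 25, the highest in rat 3 and in rat 26 at week 8, and within the range in the remaining libraries. The red blood cell sum was the lowest of its group in rat 26 at week 8 (304685 RPM, others 310472 to 379557). It was also the lowest in rat 17 (270785 RPM, others 277483 to 370147) and rat 25 (232145 RPM, others 249985 to 303258). In the remaining libraries it lay within the range of the others. Leukocyte, liver and muscle sums lay outside that range in some of these libraries. The part of all these measures was not tested. Leaving out any of these rats gave no call between strong and weak regenerators.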

How the results depend on the processing

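Of 360 alternative values of the log2 fold changes against baseline, 354 stayed within the spread between rats, 6 moved (week 8 under scaling to UniSp2 reads, given with the results) and 0 changed sign. Leaving out 1 rat at a time gave 4 to 5 called members for week 1, 6 for week 4 and 5 to 6 for week 8. Among 918 alternative values of strong against weak regenerators 0 were called and 60 had the other sign. Differences in strand ratio with 1 rat left out ranged from -0.13 to 0.01 for miR-351 and from -0.06 to 0.13 for miR-542. For the comparison over all time points, the alternative without week 8 was chosen after seeing the data and called 0 members.

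With the rat as a block, which pairs the samples of an animal, the calls numbered 5 members for week 1, 6 for week 4 and 5 for week 8: miR-450b-3p gained its call at week 1 and miR-450a-5p lost its call at week 8. No other call changed under the block, and calls against baseline remain a description of miRNAs chosen on them. In the differences in change between regenerators 0 members were called with it, and with the samples of a rat summed 0 members were called between strong and weak regenerators.

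Low counts limit miR-450b-3p most, which had 2 to 91 reads per sample. The range of baseline differences between the groups reached below 0 for miR-351-3p (-0.00 to 0.30) and miR-450a-5p (-0.07 to 0.40) with 1 rat left out, so the shared direction of the 6 at baseline did not hold in each of these sets.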
